A study of Daucus carota subsp. sativus with 2 samples.

Results

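Of the 19838 transcripts in the count table of carrot roots, 129 carried a protein name of the ubiquitin and proteasome system. They were taken by name: any protein name holding ubiquitin, proteasome, RING-type, U-box, HECT, cullin, SKP1 or SUMO, with ribosomal names left out (0 rows had to be left out). The rule used no measured value. By their names 21 belong to the proteasome, 83 to E3 ligases, and 25 to ubiquitin and its relatives, to the E1 and E2 enzymes, to SUMO, to cullin neddylation and to deubiquitinating enzymes. No member was named as HECT or SKP1.

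The study compared a red carrot sold as Delhi carrot with an orange hybrid, described in its title as wild and modified, both available in India. Both are Daucus carota of the sativus type, the tissue was the root, and no treatment was given. Poly(A) RNA was sequenced in 1 library per variety. The labels do not state plant age, the number of roots behind each library or the hybrid's parents. With 1 library a group there is no replicate check, so no p-value is given here for any difference and each statement is about these 2 libraries.

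Ubiquitin is a small protein that is attached to other proteins through a relay. An E1 enzyme activates it, an E2 carries it, and an E3 ligase picks the target and brings the E2 to it. Chains of ubiquitin can send the target to the proteasome, a barrel of alpha and beta rings (the core particle, which cuts proteins) capped by a regulatory particle that recognises and unfolds them. Deubiquitinating enzymes remove the tag. In plants the E3 ligases are far more numerous than the other parts, and they act in hormone perception, light responses and defence.

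The red library held 11310179 reads and the orange library 7432754. Scaled counts are read counts over a median-of-ratios size factor (1.07 in the red library, 0.937 in the orange one). Transcripts with a mean scaled count of 10 or more are called measured, and 114 members are. Folds are ratios of scaled counts with a 95% exact Clopper-Pearson interval that covers counting error only. A transcript was called different if its fold was at least 2 and the interval excluded equality. The libraries differed widely: 54.8% of the 14868 measured transcripts were called, 24.4% higher in orange and 30.4% higher in red. Green-tissue transcripts (chlorophyll a-b binding proteins, photosystem subunits and the RuBisCO small chain) took 4.28% of reads in the red library and 0.314% in the orange one, although both are labelled root. Of the 41 measured green-tissue transcripts 33 were called higher in red and 3 in orange, and 4 of the 45 listed had no read in orange, among them RBCS and LHCA6. Xylem and wall transcripts, 0.216% of reads in red and 0.342% in orange, were called higher in orange for 14 of 21 and in red for 1. Phloem transcripts (0.312% and 0.0497%) were called higher in red for 5 of 6 and in orange for 1, and transcripts of dividing cells (0.0498% and 0.113%) higher in orange for 14 of 36 and in red for 9. The part of tissue makeup in the results on ubiquitin and proteasome transcripts was not tested, and fewer cells of a type cannot be told apart from less RNA per cell.

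Across the members, 33 of 114 were called higher in orange and 25 higher in red, 50.9% in all beside the 54.8% of all measured transcripts. The classes did not look alike, as the plot of log2 folds by class shows. Proteasome transcripts lay close together around equality. E3 ligases spread to both sides, about as widely as all measured transcripts. In the small classes, 4 of 6 ubiquitin and ubiquitin-like transcripts and 2 of 7 E2 enzymes were called higher in orange, beside 24.4% of all measured transcripts. The calls of the ubiquitin and ubiquitin-like class include UFD1, which is there by the word ubiquitin in its name. The E2 share, 28.6%, was near that of all transcripts. Of 7 deubiquitinating enzymes 3 were called higher in red, beside 30.4% of all measured transcripts. These few calls depend in part on the scaling, as given with each class.

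**Figure D1:**
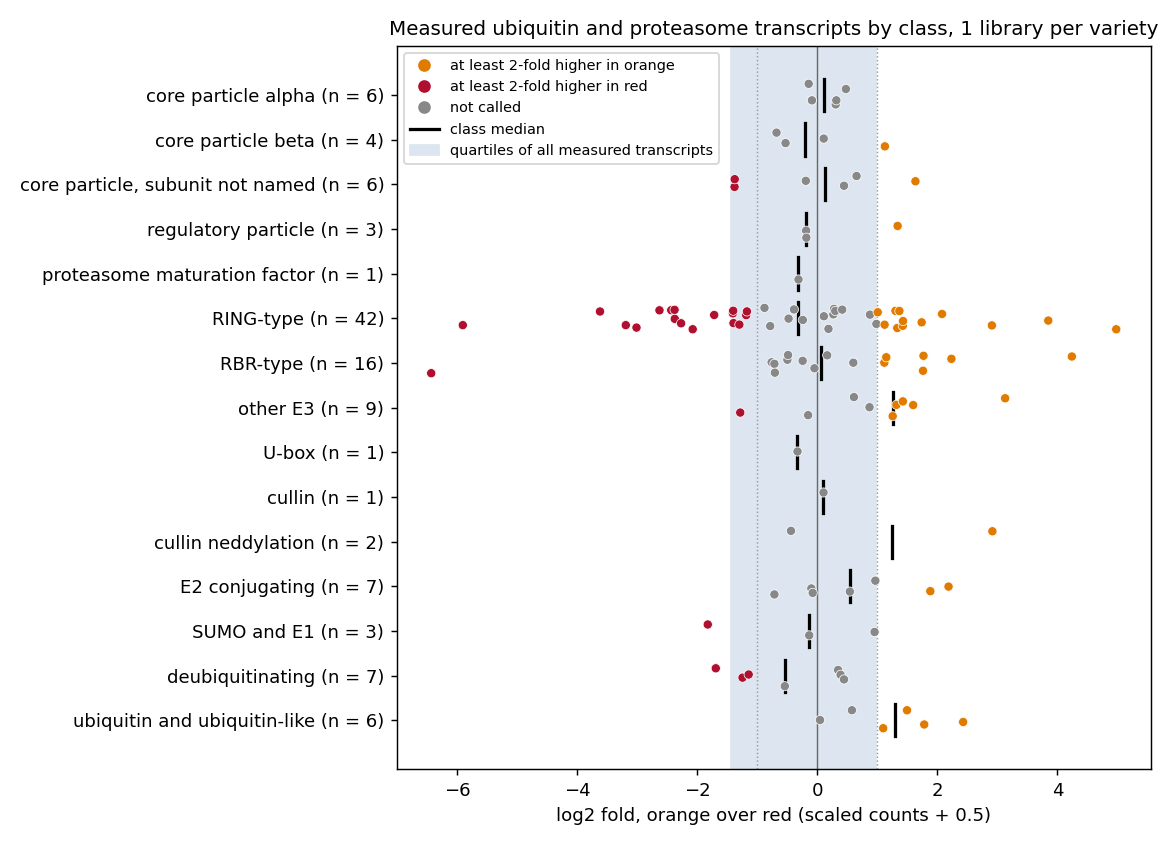
Log2 fold, orange over red (x axis, scaled counts plus a pseudocount of 0.5), of each of the 114 measured members (points), grouped by class (y axis), with the class median as a black bar and the quartiles of all measured transcripts (-1.44 to 0.97) as a shaded band. Points of the alpha subunits stay between the dotted 2-fold lines, whereas RING-type ligases run from -5.91 to 4.98.

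Proteasome transcripts differed little between the libraries. Of 20 measured, 15 (75%) differed by less than 2-fold and 13 (65.0%) by less than 1.5-fold; 3 were called higher in orange and 2 in red. Over all measured transcripts, 44.9% differed by less than 2-fold and 28.5% by less than 1.5-fold. In the 10652 transcripts within the proteasome's own range of mean counts, 49.7% differed by less than 2-fold and 50.3% were called. The middle 50% of the proteasome log2 folds ran from -0.22 to 0.45, against -1.44 to 0.97 for all transcripts. The median absolute log2 fold was 0.38 for the proteasome and 1.15 for all transcripts. These shares were not tested against each other.

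Summed over all 21 rows, the proteasome had 13027 reads in red and 11573 in orange, which is 1.01-fold after scaling (0.986 to 1.04). That equality is set by the scaling. As shares of all reads the sums were 0.115% in red and 0.156% in orange, and with libraries scaled to total reads the median log2 fold was 0.32 rather than -0.09. The narrow spread does not depend on that choice, since a scaling moves all transcripts by the same amount: 4 of 20 were called with total-read scaling (all higher in orange). As a steady reference the proteasome met the condition set here, which was a larger share under 2-fold than in all transcripts and in those of like counts. Cytosolic ribosomal proteins, the other reference, had 70.6% of 51 transcripts under 2-fold, also above the 44.9% of all transcripts. They were not compared with transcripts of like counts. Their summed scaled counts were 1.595-fold higher in orange (1.58 to 1.61), a value that also depends on the scaling and is not part of the condition.

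The alpha subunits, which form the outer rings and the gate of the core particle, lay close to equality in the main scaling. None (0) of the 6 was called, also with total-read or ribosomal protein scaling, and all 6 were under 1.5-fold. With total-read scaling DCAR_009970, DCAR_022475 and PAE1 exceeded 1.5-fold toward orange (log2 0.89, 0.73 and 0.72). DCAR_016110 had 500 reads in red and 397 in orange (1.11-fold higher in red after scaling, interval 0.968 to 1.27). AQUCO_05800178v1 had 590 and 485 (1.07-fold higher in red, 0.946 to 1.21), and DCAR_018740 had 228 and 188 (1.07-fold higher in red, 0.874 to 1.30). Each of these intervals includes equality. PAE1, an alpha subunit, had 81 and 88 reads (1.24-fold higher in orange, 0.904 to 1.69), an interval that also includes equality. DCAR_022475 was 1.24-fold (1.07 to 1.45) and DCAR_009970 1.39-fold higher in orange (1.24 to 1.56). Since the size factor is larger for red, equal read counts correspond to a somewhat higher scaled count in orange.

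The beta subunits, which include the proteolytic sites, were less uniform. CISIN_1g022125mg had 1339 reads in red and 733 in orange (1.60-fold higher in red, 1.47 to 1.76), and DCAR_003564 had 1002 and 609 (1.45-fold higher in red, 1.31 to 1.60). DCAR_006866 was near equality with 780 and 737 reads (1.08-fold higher in orange, 0.971 to 1.19). LOC107762226 went the other way, with 561 and 1075 reads (2.18-fold higher in orange, 1.97 to 2.42), and was the 1 called member of 4.

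Rows named only as the endopeptidase complex, which the name does not place in the alpha or beta ring, held most of the exceptions. The gene name DCAR_016639 stood on 3 of them. Transcript rna18248 had 1028 reads in red and 347 in orange (2.60-fold higher in red, 2.30 to 2.95). A second, rna26519, had 75 and 25 (2.63-fold higher in red, 1.66 to 4.33). The third, rna302, had 146 and 399 and went the opposite way (3.11-fold higher in orange, 2.57 to 3.79). The 3 rows may be copies or isoforms that exchange reads, which the files do not settle. With rows summed per gene name, 2 of 18 proteasome genes were called, both in orange, and with total-read scaling both red calls fell just under 2-fold (log2 -0.96 and -0.97). PAG1, an alpha subunit in Arabidopsis, was among the rows of this name and had 478 and 571 reads (1.36-fold higher in orange, 1.20 to 1.54). DCAR_004565 (rna6780) was 1.57-fold higher in orange (1.37 to 1.81), and DCAR_003760 had 414 and 318 reads (1.14-fold higher in red, 0.986 to 1.33).

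In the regulatory particle, the 2 large non-ATPase subunits were alike in both libraries. Subunit 1 (F383_07540), a scaffold of the base, had 1315 reads in red and 1014 in orange (1.14-fold higher in red, 1.05 to 1.24). Subunit 2 (MANES_12G089500), to which ubiquitin receptors dock in yeast, had 2189 and 1692 (1.14-fold higher in red, 1.07 to 1.21). Subunit 8 (BC332_00204), a lid component, differed from them with 422 and 937 reads (2.53-fold higher in orange, 2.25 to 2.84). The maturation factor UMP1 (Ccrd_019081), a chaperone of core particle assembly, had 675 and 476 reads (1.245-fold higher in red, 1.11 to 1.40). No ATPase subunit of the regulatory particle matched the naming rule. Rows named 26S protease regulatory subunit 7-like, an ATPase of its base, were found after the values were seen, under the gene name L195_g059018. Transcript rna11787 had 1151 reads in red and 1559 in orange (1.54-fold higher in orange, 1.43 to 1.67), and rna32530 had 1033 and 925 (1.02-fold higher in orange, 0.932 to 1.12).

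**Figure D2:**
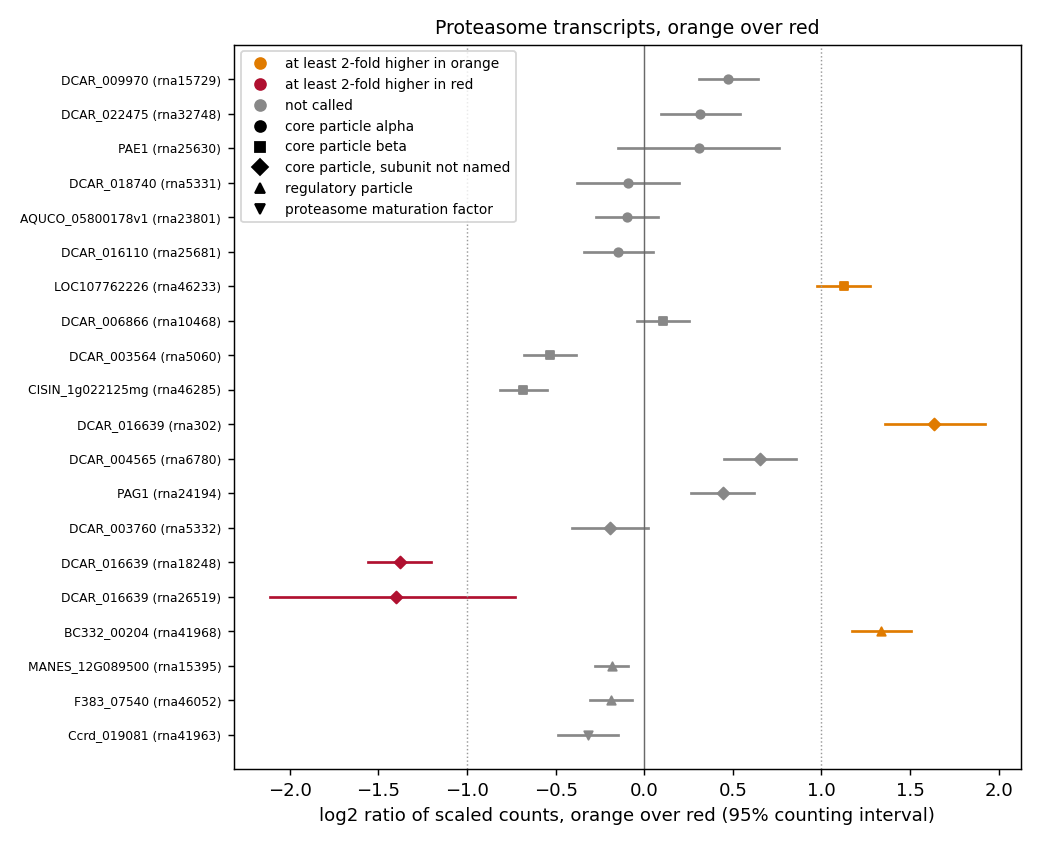
Log2 ratio of scaled counts, orange over red (x axis), for the 20 measured proteasome transcripts (y axis, gene name and transcript), with 95% counting intervals as bars and subunit classes as marker shapes. The 6 alpha subunits lie between -0.15 and 0.48, and the 3 rows named DCAR_016639 lie on opposite sides, 2 toward red and 1 toward orange.

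E3 ligases showed no such narrow spread. Of 69 measured, 42 (60.9%) were called, 23 higher in orange and 19 higher in red, against the 54.8% of all measured transcripts; 27 (39.1%) differed by less than 2-fold. Over all measured transcripts 44.9% did. The middle 50% of the ligases' log2 folds ran from -1.19 to 1.30, beside -1.44 to 0.97 for all transcripts. These widths, 2.49 and 2.41, are close, so the spread of the ligases was near that of all transcripts. Among ligases with a mean scaled count of at least 100, 31 of 48 were called (64.6%), beside 49.8% of all transcripts at that depth and 4 of 18 proteasome transcripts, so the share of ligases called was not lower at high counts. The split between libraries depended on scaling: 28 higher in orange and 12 in red with total-read scaling, and 9 and 30 with libraries scaled to their summed ribosomal protein counts. Summed reads of the 83 ligase rows were 33428 in red and 31056 in orange, 1.06-fold higher in orange after scaling (1.04 to 1.07).

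RING-type ligases, which hold the E2 and the target side by side, were the largest class. They are the rows so named, and most ligases named without a type carry the same enzyme number. Of 42 measured, 17 were called higher in red and 12 in orange (11 and 14 with total-read scaling, 21 and 5 with ribosomal protein scaling). That is 40.5% in red and 28.6% in orange, beside 30.4% and 24.4% of all transcripts. In this class 14 differed by 4-fold or more, 10 of them higher in red and 4 in orange. The share of all 14868 measured transcripts at 4-fold or more was similar, with 2917 higher in red and 1849 in orange. Summed scaled counts of the RING-type class were nearly equal, with 26436 and 23410 reads (1.01-fold, 0.991 to 1.03). As with the proteasome, that is set by the scaling: as shares of all reads the sums were 0.234% in red and 0.315% in orange.

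The sums were led by different transcripts. The 4 RING-type transcripts with the most reads in red held 44.5% of the class reads there, and the 4 with the most in orange held 54.8% there, with 0 in common. In the much smaller E2 class (7 transcripts) and ubiquitin and ubiquitin-like class (6), 3 of the leading 4 were in common. How often leading transcripts differ over all transcripts was not tested. In red the RING-type class was led by DCAR_020699 with 4705 reads against 666 in orange (6.20-fold higher in red, 5.72 to 6.74). DCAR_027971 had 2904 and 315 (8.10-fold, 7.21 to 9.12). DCAR_006418 had 2437 and 806 (2.66-fold, 2.45 to 2.88; log2 -0.99, under 2-fold, with total-read scaling), and LSAT_6X98760 had 1718 and 122 (12.4-fold, 10.3 to 15.0). All 4 were higher in red, a direction that choosing them by their red reads favours.

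In orange, DCAR_026544 alone held 25.8% of the class reads, with 6033 reads against 217 in red (31.7-fold higher in orange, 27.6 to 36.4). Without it the summed scaled counts of the class were 1.33-fold higher in red (1.30 to 1.35). DCAR_026125 followed with 1162 reads in red and 3404 in orange (3.34-fold higher in orange, 3.12 to 3.57). DCAR_018902 (926 and 2097 reads) and DCAR_026812 (547 and 1289) were the other members of the leading 4 in orange, at 2.58-fold and 2.68-fold; the rule for genes described singly does not take them, and they were chosen after their values were seen.

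At the extremes of fold, DCAR_013871 had 237 reads in red and 3 in orange (69.4-fold higher in red, 23.5 to 339). DCAR_016915 had 369 and 35 (9.26-fold higher in red, 6.54 to 13.5). On the other side, DCAR_002669 had 66 and 841 (14.5-fold higher in orange, 11.3 to 18.9), DCAR_026770 had 133 and 880 (7.53-fold, 6.27 to 9.11), and DCAR_007288 had 46 and 172 (4.26-fold, 3.06 to 6.03). The targets of these ligases are not given by the deposited names.

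RBR-type ligases carry ubiquitin on themselves before passing it on. Of 16 measured, 6 were called higher in orange and 1 in red (7 and 1 with total-read scaling, 4 and 6 with ribosomal protein scaling), 43.75% in all beside the 54.8% of all transcripts. The single red call had the largest ratio among the measured members: DCAR_018846 had 243 reads in red and 2 in orange (107-fold higher in red, 29.2 to 886). The member with the most reads, DCAR_029921, had 972 and 1892 (2.22-fold higher in orange, 2.05 to 2.40), and DCAR_005510 had 273 and 520 (2.17-fold, 1.87 to 2.52). DCAR_011915 had 25 and 105 reads (4.78-fold higher in orange, 3.07 to 7.72) and DCAR_010243 had 46 and 138 (3.42-fold, 2.43 to 4.88). Under 2-fold lay DCAR_022089 (1.12-fold higher in orange, 0.965 to 1.30) and, all higher in red, DCAR_023262 (1.70-fold, 1.46 to 1.98), DCAR_032084 (1.65-fold, 1.36 to 1.99) and DCAR_006040 (1.64-fold, 1.19 to 2.28).

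Locus tags that follow each other in number did not have to share a direction. DCAR_020698 (298 reads in red, 50 in orange) and DCAR_020699 were both called higher in red, at 5.23-fold and 6.20-fold, while DCAR_020700, also RING-type, had 68 and 110 reads (log2 0.88 toward orange). Among RBR-type members DCAR_006039 had 16 and 49 reads (log2 1.77) and its numerical neighbour DCAR_006040 had 112 and 60 (log2 -0.71). These pairs were chosen after their values were seen, and no coordinates of the members were used here.

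Ligases named without a type gave 5 of 9 measured higher in orange and 1 in red, beside 24.4% and 30.4% of all transcripts (7 and 0 with total-read scaling). Apart from BRG2_0, these measured rows carry the same enzyme number as the RING-type rows. Their split from the RING-type class therefore follows the wording of the name. The lean toward orange here, and toward red in the RING-type class, belongs to names as worded and not to a ligase type. BRG2_0, named for the BOI-related RING ligases of Arabidopsis, had 171 reads in red and 359 in orange (2.39-fold higher in orange, 1.99 to 2.88). MANES_02G143400 had 230 and 504 (2.50-fold, 2.13 to 2.93), and DCAR_015249 had 55 and 147 (3.04-fold, 2.22 to 4.23). DCAR_006597 was the exception with 495 and 178 reads (2.44-fold higher in red, 2.05 to 2.92; log2 -0.87 with total-read scaling). DCAR_015857 had 336 and 265 reads (1.11-fold higher in red, 0.945 to 1.31), and DCAR_020323 was 1.53-fold higher in orange (1.28 to 1.81). A row with no gene name, rna40323, had 117 and 188 reads (1.83-fold higher in orange, 1.44 to 2.32). With ribosomal protein scaling none (0) of the orange calls in this class was kept, with 8 measured there. SINAT3_0, outside the rule for genes described singly, had 2 and 19 reads (10.8-fold higher in orange, 2.61 to 95.8). It lost its call there because it fell under the minimum mean.

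Cullin-1 (CUL1), the scaffold of the SCF ligases that include the auxin and jasmonate receptors, had 1388 reads in red and 1305 in orange (1.07-fold higher in orange, 0.992 to 1.16), an interval that includes equality. A protein of the RING and U-box superfamily (At4g35840) had 596 and 413 (1.27-fold higher in red, 1.12 to 1.44). PUB35, a U-box protein, was not measured, with 17 reads in red and 0 in orange. The 15 members that were not measured are 14 ligases and 1 proteasome row (DCAR_004565, rna6778), each with at most 17 reads in either library. They include UPL5, a HECT ligase in Arabidopsis, with 1 and 0 reads. Of the 129 members, 9 had no read in 1 of the libraries.

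**Figure D3:**
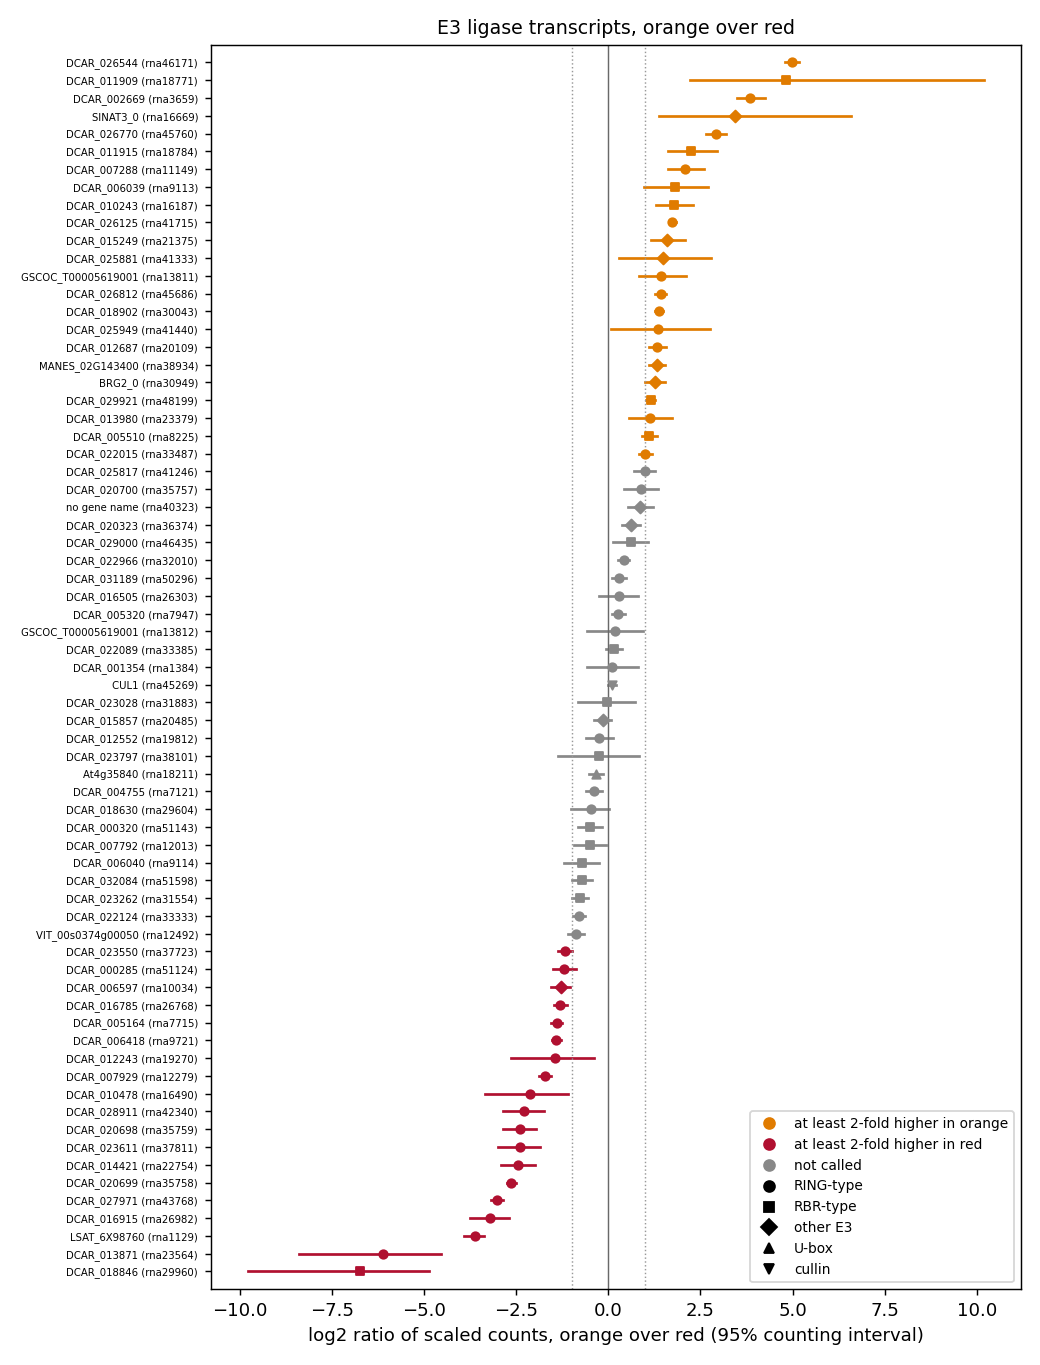
Log2 ratio of scaled counts, orange over red (x axis), for the 69 measured E3 ligase transcripts in order of ratio (y axis), with 95% counting intervals as bars and ligase types as marker shapes. Called ligases fill both ends, 19 toward red and 23 toward orange, and wide bars such as that of DCAR_018846 (243 and 2 reads) mark ratios that rest on few reads in 1 library.

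Ubiquitin and ubiquitin-like transcripts were higher in orange where they were called. Of 6 measured, 4 were called higher in orange and 0 in red (4 and 0 with total-read scaling, 2 and 0 with ribosomal protein scaling), beside the 24.4% of all transcripts called in orange. The class took every remaining name with ubiquitin. One of its calls is therefore UFD1, a partner of CDC48 in yeast and not named as a ubiquitin relative. The hexaubiquitin transcript (ARALYDRAFT_894064), a precursor of ubiquitin units joined head to tail, had 1847 reads in red and 8739 in orange (5.39-fold higher in orange, 5.12 to 5.67). It held 56.2% of the reads of the class in red and 77.0% in orange. The ubiquitin domain-containing protein 1-like transcript (LOC107853188) had 163 and 493 (3.44-fold, 2.88 to 4.14).

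The membrane-anchored ubiquitin-fold protein DCAR_011053, of a family that binds E2 enzymes at the plasma membrane in Arabidopsis, had 429 reads in red and 1062 in orange (2.82-fold higher in orange, 2.52 to 3.16). UFD1 (KK1_013935), a partner of the unfolding ATPase CDC48 in yeast, had 259 and 487 (2.14-fold, 1.84 to 2.50). The other 2 members were not called. ATG12 (GLYMA_16G007300), of autophagy, had 103 and 135 reads (1.49-fold higher in orange, 1.15 to 1.95). URM1 (CCACVL1_30848), a sulfur carrier for tRNA, had 485 and 439 (1.03-fold, 0.904 to 1.18).

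E2 enzymes were called higher in orange for 2 of 7 and in red for 0. That is 28.6% in orange, near the 24.4% of all transcripts; the counts were 3 and 0 with total-read scaling and 2 and 1 with ribosomal protein scaling. The E2 variant UEV1D-4, which lacks the catalytic cysteine and pairs with an active E2 to build chains, had 366 reads in red and 1464 in orange (4.55-fold higher in orange, 4.06 to 5.12). The 3 transcripts named E2-17 kDa did not move together. MA16_Dca020964 had 1218 and 3944 reads (3.69-fold higher in orange, 3.46 to 3.93), while AXF42_Ash003321 had 951 and 791 (1.06-fold higher in red, 0.960 to 1.16) and MA16_Dca008770 had 855 and 700 (1.07-fold higher in red, 0.970 to 1.19).

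Among the other E2 enzymes, the E2 10-like transcript LOC103699143 had 3075 reads in red and 1643 in orange (1.64-fold higher in red, 1.55 to 1.75). It led the class in red with 36.3% of its reads, and MA16_Dca020964 led it in orange with 33.4%. BAE44_0022481 was 1.46-fold higher in orange (1.27 to 1.67).

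SUMO is a ubiquitin relative that modifies mainly nuclear proteins, and its transcript was the 1 called of 3 in its class. The SUMO transcript DCAR_007868 had 555 reads in red and 137 in orange (3.56-fold higher in red, 2.95 to 4.32), and kept its call with total-read scaling. SAE2, the large subunit of the SUMO-activating E1, had 542 and 433 (1.10-fold higher in red, 0.967 to 1.25), an interval that includes equality. The other E1 transcript, HannXRQ_Chr06g0181461, which its name gives to ubiquitin or SUMO, had 675 and 1148 (1.94-fold higher in orange, 1.76 to 2.13; log2 1.37 with total-read scaling).

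Neddylation is the attachment of a ubiquitin relative to cullins, which switches cullin ligases on. Of the 2 rows named as defective in cullin neddylation, a family that promotes this step in yeast, DCAR_016849 had 480 reads in red and 3186 in orange (7.56-fold higher in orange, 6.86 to 8.34). The other, DCAR_017897, had 45 and 29 (1.36-fold higher in red, 0.836 to 2.25). Cullin-1 itself was near equality, as given above.

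Deubiquitinating enzymes were called higher in red for 3 of 7 and in orange for 0 (1 and 0 with total-read scaling, 4 and 0 with ribosomal protein scaling), beside the 30.4% of all transcripts called in red. TCM_032573 had 108 reads in red and 29 in orange (3.27-fold higher in red, 2.15 to 5.11). DCAR_000731 had 328 and 121 (2.38-fold, 1.93 to 2.96) and DCAR_014905 had 177 and 70 (2.22-fold, 1.67 to 2.97), both under 2-fold with total-read scaling (log2 -0.83 and -0.73). Of the others, DCAR_000641 was 1.46-fold higher in red (1.20 to 1.77), and DCAR_018595, DCAR_026615 and the thioesterase DCAR_024966 were between 1.27-fold and 1.36-fold higher in orange.

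**Figure D4:**
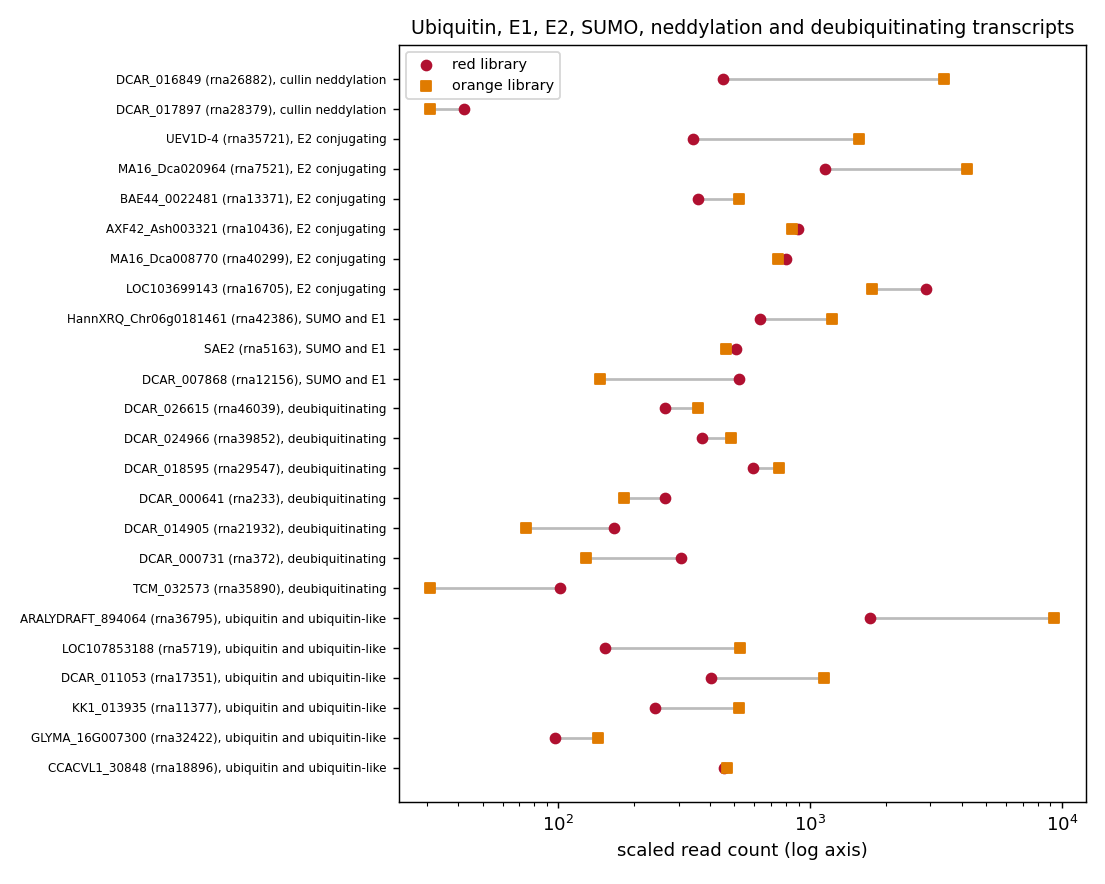
Scaled read counts (x axis, log scale) in the red library (circles) and the orange library (squares) of ubiquitin, E1, E2, SUMO, neddylation and deubiquitinating transcripts (y axis). The longest lines belong to DCAR_016849 (480 and 3186 reads before scaling), hexaubiquitin (1847 and 8739) and UEV1D-4 (366 and 1464), each higher in orange.

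Genes of the pathway outside the naming rule were also counted. The list of F-box, COP9 signalosome, CDC48, UBA, DDB1, BTB and autophagy names had 18 measured transcripts, 6 called higher in orange and 3 in red (50% in all, near the 54.8% of all transcripts), with a median log2 fold of 0.16 beside -0.06 for all transcripts; the names COP9 signalosome, UBA and DDB1 found 0 rows. F-box proteins, the target-picking subunits of SCF ligases, were called higher in orange for 4 of 10 and in red for 1, also 50% in all. An F-box/kelch-repeat transcript (L195_g015276) had 133 reads in orange and 0 in red, which makes it at least 50.5-fold higher in orange against a floor of 3 counts in the red library; the exact interval has its lower limit at 40.5-fold. A tubby-like F-box protein (DCAR_019538, rna31110) had 109 and 670 reads (6.999-fold higher in orange, 5.71 to 8.65). The CDC48-domain row CFOL_v3_01839 had 35 and 0 reads, at least 10.2-fold higher in red against the same floor in orange, with an exact lower limit of 7.90-fold.

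Autophagy transcripts were called higher in orange for 2 of 6 and in red for 1 (50% in all, near the 54.8% of all transcripts), with DCAR_005728 at 896 and 171 reads (4.60-fold higher in red, 3.90 to 5.45) and CUMW_174540 at 1133 and 2164 (2.17-fold higher in orange, 2.02 to 2.34). The BTB/POZ transcript LOC109000670 was 1.77-fold higher in orange (1.39 to 2.26). RING-box protein 1a (L484_027402), which joins the E2 to cullins, was chosen after its values were seen and had 186 and 957 reads (5.86-fold higher in orange, 5.002 to 6.89). The transcript named CDC48, chosen in the same way, had 2521 and 3053 reads (1.38-fold higher in orange, 1.31 to 1.45).

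The authors' deposited tables give a p-value for each of the 129 members. A threshold of 0.05 was passed there by 3 members, DCAR_018846, DCAR_013871 and DCAR_002669, beside 6.04% of all transcripts in the authors' deposited tables. After the authors' adjustment 0 members passed it in the authors' deposited tables, beside 63 of all 19838 transcripts there. The lowest adjusted value of a member was 0.339. The notes do not say how a spread was obtained from 1 library per group.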

How the data were processed

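Poly(A)-selected root RNA was sequenced in 1 red and 1 orange library, grouped by title. Per the submitters' processing notes the tools were HISAT and HTSeq with FastQC and cutadapt, and DESeq; versions, roles, genome build, annotation and strand setting were not given in the sources used here. Read counts per transcript, each with protein and gene names, were deposited by the authors. Many gene names are tags of other species (92 of 129 members carry a carrot tag), so a gene name is a label of the row. Copies that resemble each other can exchange reads. The authors also deposited normalised counts, a signal equal to the read count times 0.937 (red) or 1.07 (orange), the inverse of the size factors recomputed here. The deposited comparison tables hold a fold (ratio) of orange over red, its log2 and a p-value; only the p-values were used.

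Counts were scaled by median-of-ratios size factors (Python 3.11.15, numpy 2.4.6, pandas 2.3.3, scipy 1.17.1). Log2 folds used a pseudocount of 0.5. Intervals and floors cover counting error only, since they come from 1 pair of counts. Reads without molecular identifiers are not independent molecules, so the intervals may be too narrow even for that error. Counts carry no transcript length, so levels were compared between libraries and not between genes. The procedure was tested on counts simulated with counting error only (Poisson), the error that the intervals assume. That simulation held no variation between roots or libraries, so it cannot show whether calls would repeat in further libraries. Named genes were every measured member of classes of at most 8, and in larger classes the 4 of highest mean and the 4 of largest fold in each direction with a mean of at least 50; others are marked, and an E2 member is not reported here by itself. Members and lists were chosen with earlier results of these data known. RBR-type ligases were set apart after the names were read. Matching the members to the RefSeq gene table found 0, and coordinates and sequences are therefore left out. The alternatives were total-read and TMM scaling (edgeR 4.0.16), no filter, a minimum mean of 50, a pseudocount of 5 and sums per gene name; scaling to summed ribosomal protein or proteasome counts was added after seeing the data.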

Additional observations from a re-analysis of the deposited data

How the results depend on the processing

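With 1 library per variety no library could be left out. No paired analysis was possible because each group has 1 library and the results come from no test. Scaling mattered most. Total-read scaling moved log2 folds by 0.42 toward orange. It gave medians of 0.32 (proteasome, -0.09 in the main scaling), 0.52 (E3 ligases, 0.11) and 0.80 (other classes, 0.39), with 0, 12 and 2 members higher in red in place of 2, 19 and 4. Scaling to summed ribosomal protein counts, added after seeing the data, moved folds by 0.67 toward red. It gave medians of -0.77, -0.57 and -0.29, with 0 proteasome and 9 E3 transcripts higher in orange and 4, 30 and 7 higher in red. With a minimum mean of 50 the E3 median was -0.028 and 1 proteasome transcript was higher in red. With counts summed per gene name 2 proteasome genes were called, 0 of them in red. TMM scaling, no filter and a pseudocount of 5 kept the counts of calls of the proteasome, the E3 ligases and the remaining classes within 1.5 times. Of the 74 members the rule names, 62 moved beyond their counting interval with total-read scaling and 70 with ribosomal protein scaling. A call needs a log2 fold of at least 1 in either direction, and the largest shift was 0.67. No called member could therefore change sign with any of these scalings. Summing per gene name is not a scaling. It pooled the rows named DCAR_016639, called in both directions, into a row that was not called. Depth limits the 15 members under the minimum mean, which were left uncalled by the filter in the main setting. With no filter, 24 E3 ligases were called higher in orange and 20 in red, against 23 and 19 in the main setting.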
